A study of Homo sapiens with 4 samples.

Results

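Growing IMR90 fibroblasts with a hairpin against HMGA1 (Grow-shA1) were compared with growing IMR90 fibroblasts without it (Grow) by Hi-C, which counts ligated DNA ends that lay close together in the nucleus. IMR90 is an established line of normal human lung fibroblasts. The labels give the Grow-shA1 cells the genotype pLNCX2 ER:HRAS G12V, an oncogenic RAS protein that works only with 4-hydroxytamoxifen (4OHT), and the vector pMSCV miR shHMGA1. No 4OHT was given to them, and they were kept in 10% serum and 5% oxygen. The hairpin stands in a miR30 backbone in a retroviral vector, and no level of HMGA1 is measured by Hi-C, so the knockdown was not checked here.

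Each condition is 1 map. The Grow-shA1 map pools 2 samples. The Grow map comes from an earlier Hi-C data set of IMR90 and belongs to no sample of the series, so the hairpin, the vector and the data set cannot be told apart in Grow-shA1 minus Grow. The same holds for the senescent pair, OIS-shA1 minus OIS, in which RAS had been switched on with 100 nM 4OHT for 6 days. That pair shares no map with the growing pair and is given beside it for reading only. Without replicate maps no difference could be tested. In its place the SD over the 22 autosomes is given, which describes how even a difference was along the genome and not how it would repeat.

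The maps hold a score for each pair of bins of about 200 kb on 1 chromosome, set against what their distance alone would give. Differences are in these score units, and the base of their logarithm, if they have one, is not stated. Of 14444 bins in all, 13547 lie on autosomes, and 12825 of these were kept because each map listed at least 50% of their pairs. The comparison rests on 3631856 pairs of kept bins with a score in both maps. Among pairs over 2 Mb apart, called distal, the Grow map listed 88.9% and the Grow-shA1 map 83.5%. At 2 Mb or less, called local, both listed at least 99.999%. How many reads stand behind a pair is not given, and neither is the error of a score.

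HMGA1 is a small architectural protein of chromatin. Its AT-hooks sit in the minor groove of runs of A and T, and it is abundant in proliferating and embryonic cells. Chromatin sorts into an A compartment, which is gene-rich, active and higher in GC, and a B compartment, which is gene-poor, often lies at the nuclear lamina and is richer in A and T. Contacts within a compartment are more frequent than contacts between compartments. HMGA1 is also a component of the heterochromatin foci of senescent cells, and the comparison asks what its knockdown changes in cells that are not senescent.

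The following stretches of 150 bases show the DNA that the largest differences concern. They are the centres of the bin with the lowest distal change, the bin with the highest distal change and a bin near the end of the long arm of chromosome 18. They were chosen after the values were seen, by this rule, and read from the plus strand of GRCh37, the build of the files, and capitals mark runs of 5 or more A or T bases.
Lowest bin, chr21:15500077-15500226: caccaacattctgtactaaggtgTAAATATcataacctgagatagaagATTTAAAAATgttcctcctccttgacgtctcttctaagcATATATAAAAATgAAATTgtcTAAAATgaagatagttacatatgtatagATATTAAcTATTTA
Highest bin, chr21:33300836-33300985: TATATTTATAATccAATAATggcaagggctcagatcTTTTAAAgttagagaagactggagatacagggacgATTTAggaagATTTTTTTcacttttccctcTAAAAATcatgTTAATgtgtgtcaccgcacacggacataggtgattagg
End of chromosome 18, chr18:77500860-77501009: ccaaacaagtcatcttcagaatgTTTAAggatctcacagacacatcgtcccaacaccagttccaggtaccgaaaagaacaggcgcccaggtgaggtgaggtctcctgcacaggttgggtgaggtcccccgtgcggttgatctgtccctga
The centre of the highest bin holds 33.3% of its bases in such runs and that of the lowest 35.3%, closer to each other than the bins they stand for. Over the whole bins the shares were 22.9% for the lowest bin, 14.996% for the highest bin and 10.8% for the bin on chromosome 18.

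Contact scores were slightly lower in Grow-shA1 at every distance. Over all pairs the mean difference was -0.0459 (median -0.0360, SD over pairs 0.456), and 53.5% of the pairs were below 0. The difference was -0.0551 ± 0.0484 (SD over 22 autosomes) within 1 Mb and -0.0538 ± 0.0313 at 1-2 Mb. Among the distances up to 100 Mb it was least at 5-10 Mb, at -0.0362 ± 0.0126, and again larger at 20-50 Mb, at -0.0534 ± 0.0212. Over 100 Mb it was -0.0214 ± 0.0134 on the 12 chromosomes long enough to have such pairs, where the median over pairs was 0.00162. All 22 autosomes were below 0 in every distance band up to 20-50 Mb, as were the 20 and the 12 that reach the longer bands.

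The compartments differed in the distances at which they were lower. Distal B-B pairs had a mean difference of -0.0620 ± 0.0213 (SD over 22 autosomes), A-B pairs of -0.0461 ± 0.0214 and A-A pairs of -0.0149 ± 0.0157. For B-B pairs the difference was largest at 50-100 Mb, at -0.0908 ± 0.0315, and below 0 on all 19 chromosomes with such pairs. At 5-10 Mb it was only -0.0164 ± 0.0333, with 14 of 22 autosomes below 0. For A-B pairs the order was turned. They were at -0.0838 ± 0.0551 within 1 Mb and at -0.0724 ± 0.0256 at 10-20 Mb, and at only -0.0176 ± 0.0255 at 50-100 Mb. A-A pairs were the one class above 0, at 0.0150 ± 0.0362 at 2-5 Mb and 0.00907 ± 0.0239 at 5-10 Mb, where 6 and 5 of the 22 autosomes were below 0. Both A-A values are smaller than their SD over autosomes. When each distance was centred on its own median difference, the distal means became -0.0253 for B-B, -0.00749 for A-B and 0.0200 for A-A pairs, so the direction of the A-A value depends on that choice. The order of B-B and A-B pairs turned with compartments from the Grow-shA1 map, at -0.0533 for B-B and -0.0573 for A-B, and over pairs 2 to 50 Mb apart, at -0.0547 and -0.0585.

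**Figure D1:**
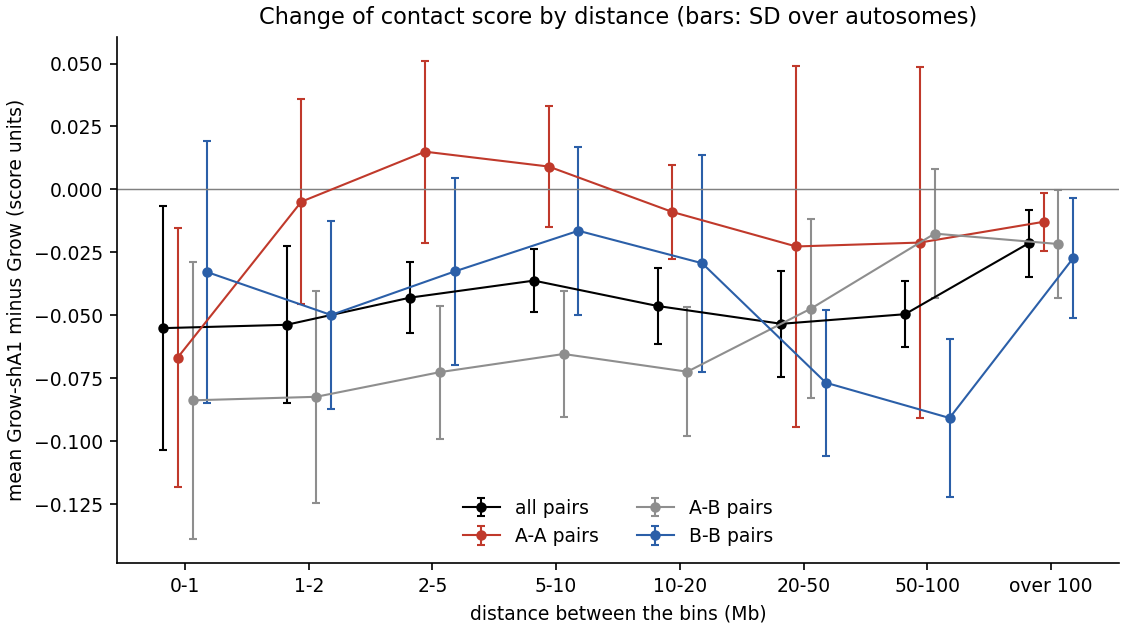
Mean Grow-shA1 minus Grow in score units (vertical axis) by distance between the bins in Mb (horizontal axis), for all pairs and for A-A, A-B and B-B pairs of the Grow compartments. Bars are the SD over autosomes; B-B pairs were lowest at 50-100 Mb (-0.0908), and A-A pairs were slightly above 0 at 2-5 Mb (0.0150).

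Near contacts differed by chromosome. Chromosome 1 had the lowest local mean, -0.180, and chromosome 2 the next, -0.124. The means of the 5 smallest autosomes ran from -0.0199 on chromosome 22 to -0.00797 on chromosome 21. Within 1 Mb, 92.2% of the pairs of chromosome 1 were lower in Grow-shA1, where its mean score was 0.660 in Grow and 0.447 in Grow-shA1. Across the 22 autosomes the local difference followed chromosome length, with r = -0.824 and rho = -0.899, and with r = -0.857 on the 20 autosomes without chromosomes 1 and 2. This is a description over chromosomes of 1 pair of maps. The local level of the Grow map itself was also higher on longer autosomes (r = 0.795 over 22). In OIS-shA1 minus OIS the relation with length had the same direction (r = -0.655, rho = -0.693), with chromosome 1 at -0.0226 and chromosome 2 at -0.00818. In Grow-shA1 minus Grow the mean over local pairs without chromosomes 1 and 2 was -0.0360.

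Distal contacts within chromosome arms were lower in Grow-shA1. Pairs over 2 Mb apart within an arm had a mean below 0 in all 39 arms described, with a median of -0.0576 and an SD over arms of 0.0250, and pairs between the 2 arms of a chromosome were below 0 in all 17 chromosomes, with a median of -0.0387. Over all such pairs the mean was -0.0528 within and -0.0324 between arms. Centred on the median difference of each distance, these became -0.0101 and -0.00555, so their size depends on the general offset between the maps. With unlisted pairs set to the lowest value of their distance they were -0.0718 and -0.0757, in the other order. The short arm of chromosome 18 was lowest, at -0.138 over 2209 pairs (SD over pairs 0.371). Its A-B pairs were at -0.173, B-B at -0.148 and A-A at -0.0606. Next came 4p at -0.0990, 5p at -0.0858, 19q at -0.0846, 12p at -0.0790 and 9p at -0.0773. In 19q the difference lay in B-B pairs, at -0.155, and A-A pairs of the same arm were at 0.0457.

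The least changed arms were 19p, 20q and 8p. The 19p mean was -0.000150 and turned above 0 in several of the alternative treatments given under the processing, 20q was at -0.00526, 8p at -0.0201 and 17q at -0.0267. In 17q the B-B pairs were at -0.117 and the A-A pairs at 0.00407, so an arm mean near 0 did not mean that its classes were near 0. The mean GC content of an arm and its difference had r = 0.342 over the 39 arms (rho = 0.327). Contacts within an arm and between the arms of a chromosome were compared at the same distance. At 50-100 Mb the mean was -0.0733 ± 0.0224 within and -0.0296 ± 0.0210 between arms, with the within-arm value the lower on 13 of 14 chromosomes that have both. At 20-50 Mb the values were -0.0536 and -0.0529, and within was the lower on 11 of 17. For B-B pairs at 50-100 Mb the values were -0.129 within and -0.0580 between arms. At 20-50 Mb the order was the other way for B-B pairs, with -0.0718 within and -0.0904 between, and for A-A pairs, with -0.0197 and -0.0322.

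**Figure D2:**
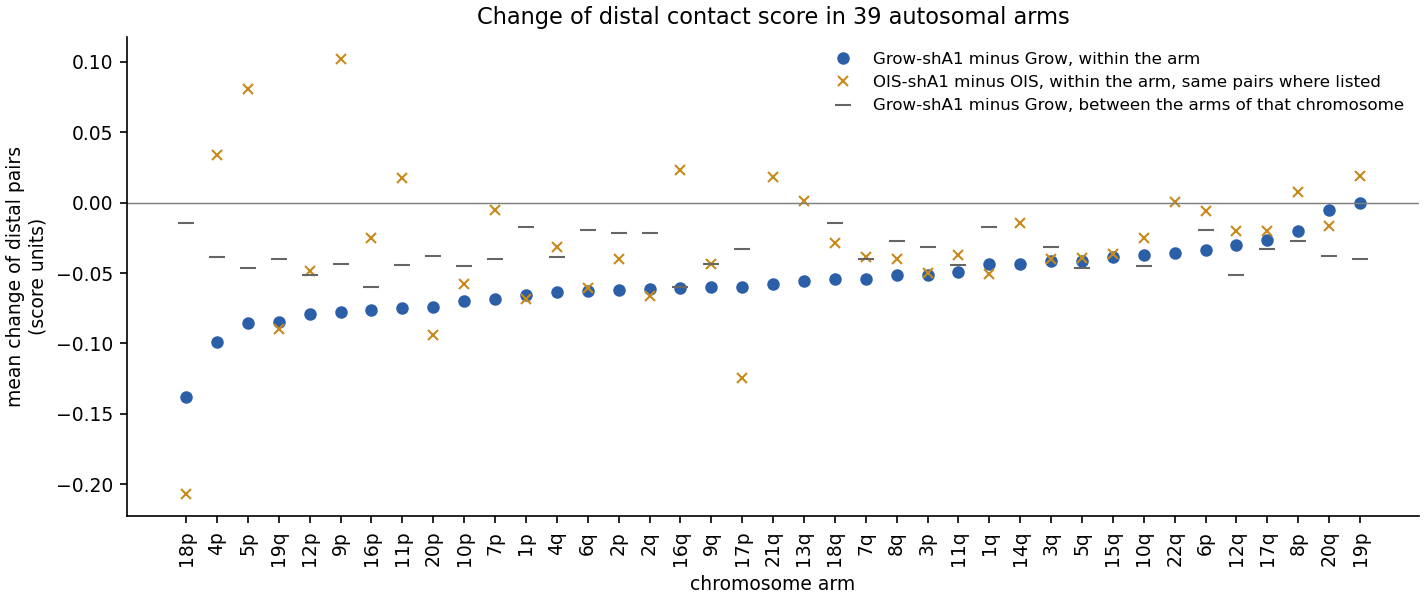
Mean change of distal pairs in score units (vertical axis) for 39 chromosome arms, ordered by Grow-shA1 minus Grow (circles), with OIS-shA1 minus OIS over the same pairs where those maps list them (crosses) and pairs between the arms of the chromosome (dashes). All circles are at or below 0, from -0.138 in 18p to -0.000150 in 19p, and the crosses of 4p, 5p and 9p are above 0.

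Distal pairs also differed by the base composition of the 2 partners. This split is finer than the one into A and B, so the 2 splits were not ranked. The 12825 bins were divided into 5 groups of 2565 by GC content, from group 1 (32.7% to 36.7% GC) to group 5 (44.2% to 60.9%). Distal contacts between 2 bins of group 1 were lower in Grow-shA1, at -0.188 ± 0.0836 (SD over chromosomes, 213561 pairs, below 0 on 20 of 20). Contacts between a bin of group 1 and one of group 5 were higher, by 0.0679 ± 0.0776 (155875 pairs), with 2 of 21 chromosomes below 0. Pairs within group 5 were at -0.0440 ± 0.0228. The step from group 1 with 1, over 1 with 2 (-0.0890), 1 with 3 (-0.0245) and 1 with 4 (0.0165), to 1 with 5 was regular.

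The differences between these kinds of pairs were widest inside the B compartment. For B-B pairs the mean of group 1 with group 1 was 0.893 in Grow and 0.668 in Grow-shA1, a difference of -0.225 ± 0.0513, and every one of the 17 chromosomes with at least 100 such pairs was below 0, from -0.324 on chromosome 10 to -0.110 on chromosome 1. B-B pairs of group 1 with group 5 were at 0.0908 in Grow and 0.247 in Grow-shA1, a difference of 0.156 ± 0.0648 that was above 0 on 20 of 20 chromosomes, from 0.0510 on chromosome 20 to 0.309 on chromosome 13. B-B pairs of group 5 with itself were at -0.127 ± 0.0395, below 0 on 18 of 18. The ranges over chromosomes of the like pairs and of the unlike pairs did not overlap.

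In the A compartment the pattern was partial. A-A pairs of group 1 with itself were at -0.120 ± 0.0868, below 0 on 11 of 11 chromosomes. Pairs of group 1 with group 5 were at 0.00729 ± 0.0210 and pairs within group 5 at -0.00491 ± 0.0283, both inside their SD over chromosomes. Centred on the median of each distance they were at 0.0419 and 0.0323. For A-B pairs the values were -0.0939 for group 1 with itself, 0.0221 for group 1 with group 5 and -0.0604 for group 5 with itself.

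The scores used to place bins in compartments come from the Grow map, which is 1 of the 2 maps compared. With compartments from the OIS map, which enters neither, B-B pairs were at -0.243 for group 1 with itself, 0.1497 for group 1 with group 5 and -0.119 for group 5 with itself. The spread of distal scores was alike in the 2 maps, with an SD of 0.757 in Grow and 0.766 in Grow-shA1. Pairs were also sorted by their score in the OIS map into 5 groups. The pairs with the highest scores there were at 0.972 in Grow and 0.829 in Grow-shA1, a difference of -0.143, and those with the lowest scores at -0.589 and -0.606, a difference of -0.0173. In OIS-shA1 minus OIS, with the Grow compartments, B-B pairs were at -0.237 for group 1 with itself and 0.233 for group 1 with group 5. Those of group 5 with itself were at -0.247. Group 1 with group 5 rested on 33989 pairs there, against 55902 in the growing pair.

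**Figure D3:**
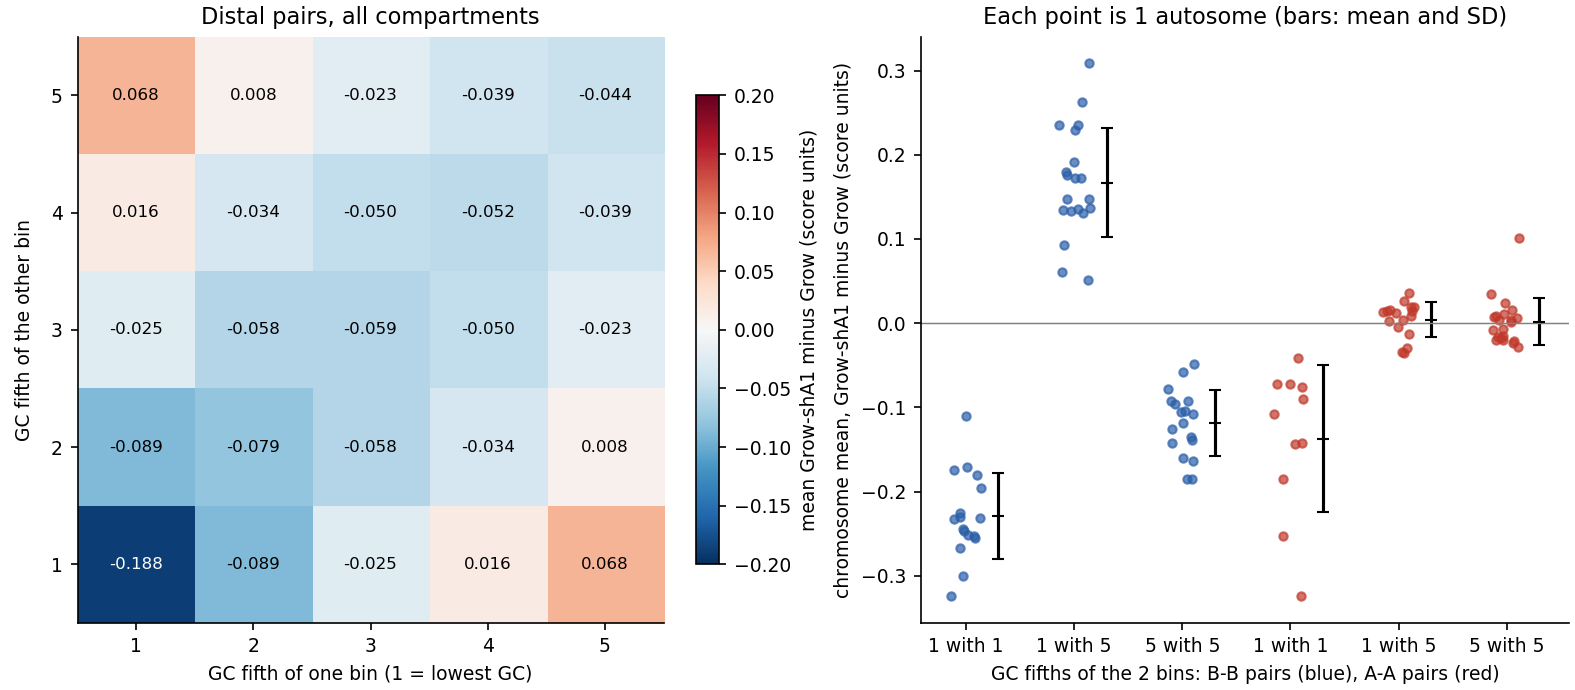
Left, mean Grow-shA1 minus Grow in score units over distal pairs, for bins in 5 groups by GC content (1 lowest, 5 highest) on both axes, from -0.188 for 1 with 1 to 0.0679 for 1 with 5. Right, the same difference per autosome (points, with mean and SD over autosomes) for B-B pairs (blue) and A-A pairs (red), where B-B points of 1 with 5 are all above 0 and those of 1 with 1 and 5 with 5 all below.

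Per bin, the mean over its distal pairs was -0.0447 ± 0.0478 (SD over 12825 bins), with 5% of the bins below -0.121 and 5% above 0.0341. A bin was called lower at -0.1 or less and higher at 0.1 or more. This gave 1377 lower bins (10.7%) and 67 higher bins (0.522%). Centred on the median difference of each distance, the counts were 303 lower and 247 higher, so the balance of the calls depends on the general offset between the maps. B bins made up 1157 of the lower bins, 15.7% of all B bins, against 220 or 4.04% of the A bins. The bin medians were -0.0576 in B and -0.0300 in A.

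The per-bin change increased with GC content (r = 0.420, rho = 0.414 over 12825 bins, which are neighbours and share maps). The relation was positive on each of the 22 autosomes, with a median r of 0.513, and weakest on chromosome 1 (r = 0.0662) and chromosome 22 (r = 0.109). The median change was -0.0696 in GC group 1, where 22.03% of the bins were called lower, and -0.0153 in group 5, where 4.44% were. Within GC group 1 the B bins had a median of -0.0735 and the A bins of -0.0485. The share of a bin in A/T runs of 10 or more bases gave r = -0.356. The number of HindIII sites, at which the chromatin was cut, also varies with base composition and gave r = -0.336. Within the 5 groups of bins with like numbers of sites, the r of GC content with the change was from 0.230 to 0.341. The Grow-shA1 map listed fewer distal pairs than Grow, with a median change of -4.52 percentage points in GC group 1 and -4.90 in group 5. The part of the cutting sites and of the listing in these differences was not tested.

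Bins near chromosome ends were called in both directions. Within 5 Mb of an end 36 of 757 bins (4.76%) were called higher and 54 (7.13%) lower, and over 40 Mb from an end 6 of 5985 were called higher and 637 (10.6%) lower. The end bins were also GC-rich, with a median of 45.3% against 38.7%. The 13, 14, 15, 21 and 22 chromosomes, whose short arm carries ribosomal DNA and was not covered, held 118 of the 757 end bins. They held 15 of the 36 higher bins and 16 of the 54 lower ones, which is 12.7% and 13.6% of their end bins.

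Lowered bins formed 647 runs, 402 of them single bins. The longest was on the long arm of chromosome 4, chr4:57800117-65397486, where all 38 bins in a row were called lower, with a mean of -0.138 and a range of -0.182 to -0.105. It is 35.6% GC, 37 of its 38 bins are B, and it holds the starts of only 5 protein-coding genes. These are NOA1, a mitochondrial GTPase, POLR2B, a core subunit of RNA polymerase II, IGFBP7, a secreted binding protein of insulin-like growth factors, ADGRL3, a latrophilin adhesion receptor of neurons, and TECRL. The bin of IGFBP7, the first of the run, is A instead, and its contacts were at -0.127 with B bins and -0.133 with A bins. Over the whole run contacts with B bins were at -0.181 and those with A bins at -0.0342, and local contacts were at 0.00936. The Grow map listed 90.6% of the distal pairs of the run and the Grow-shA1 map 83.2%. In OIS-shA1 minus OIS its mean was -0.106, below 0 in 38 of 38 bins.

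After a gap of 1 bin a run of 18 followed on the same arm, chr4:65599354-69200066, with a mean of -0.158. It holds EPHA5, an ephrin receptor, CENPC, a centromere protein, GNRHR, the receptor of gonadotropin-releasing hormone, and the serine proteases TMPRSS11D, TMPRSS11A, TMPRSS11F and TMPRSS11B. Contacts of this run with A bins were at 0.00269 and with B bins at -0.237. Chromosome 4 also held both runs of 17, chr4:174598272-177999477 (mean -0.149) with GPM6A, a neuronal membrane glycoprotein, HPGD, which inactivates prostaglandins, and VEGFC, a lymphatic growth factor, and chr4:32200482-35598276 (mean -0.141), which holds no protein-coding start. Of the 898 kept bins of chromosome 4, 227 or 25.3% were called lower. Higher shares were found on chromosome 21 (29.7%) and chromosome 13 (26.2%), a near one on chromosome 16 (85 of 340 bins), and the lowest on chromosome 1 (1.93%).

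Among the 5 longest runs the lowest mean was on chromosome 21, chr21:15202809-19006383, the gene-poor inner part of the long arm. Its 19 bins had a mean of -0.186 and went down to -0.253. Here contacts with A bins were at -0.239 and contacts with B bins at -0.156, the reverse of chromosome 4. The lowest bin of all autosomes, chr21:15400522-15599780 with LIPI and RBM11, had a mean score of 0.897 in Grow and 0.644 in Grow-shA1, a change of -0.253 (SD over 149 pairs 0.332). LIPI is a lipase and RBM11 an RNA-binding protein. The bin of NRIP1, a corepressor of nuclear receptors, was at 0.383 in Grow and 0.134 in Grow-shA1, a change of -0.250. The bin chr21:16800856-17000884, with no protein-coding gene, changed from 0.559 to 0.308. USP25, CXADR and BTG3 start in the same run. All 3 of these bins were lower over 20 Mb (-0.328, -0.369 and -0.383) than at 2-20 Mb (-0.211, -0.186 and -0.184). In the senescent pair the run was at -0.0789.

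Further low bins lay on chromosomes 19 and 22. The bin chr19:28401301-28599291, without a protein-coding gene, was at 0.759 in Grow and 0.512 in Grow-shA1, a change of -0.247 (SD over 180 pairs 0.520). The Grow-shA1 map listed 80.4% of its distal pairs and the Grow map 88.7%. The bin chr22:49399032-49594546, with none either, was at 0.0693 in Grow and -0.178 in Grow-shA1, a change of -0.247, and its local contacts were lower too, at -0.328. At 51.9% GC it was the one GC-rich bin among the 5 lowest, and its compartment score was strongly B in both maps (-1.37 and -1.35).

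**Figure D4:**
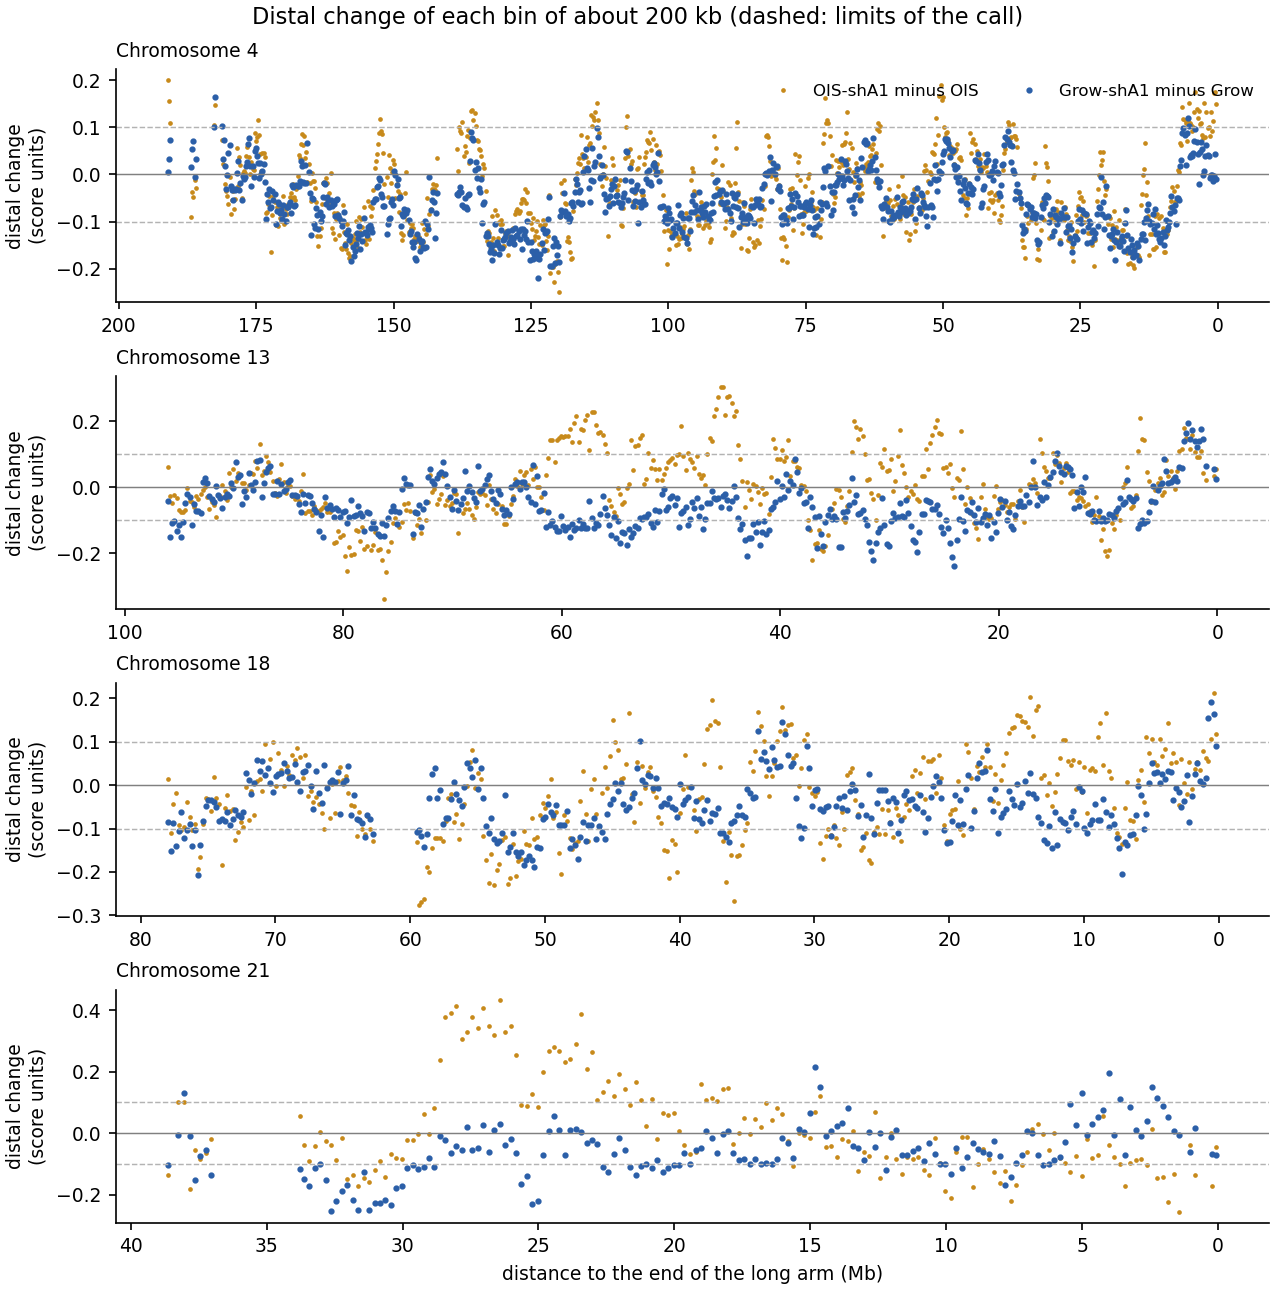
Distal change of each kept bin in score units (vertical axis) against its distance to the end of the long arm in Mb (horizontal axis) on chromosomes 4, 13, 18 and 21, for Grow-shA1 minus Grow (blue) and OIS-shA1 minus OIS (orange), with the call limits of -0.1 and 0.1 dashed. On chromosome 4 a broad trough goes down to -0.220 at about 124 Mb from the end. On chromosome 13, 10 of the 11 blue points above 0.1 form the run whose last point lies 1.27 Mb from the chromosome end.

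The 67 higher bins formed 41 runs. The longest was of 10 bins at chr13:111999748-113999466, with the middle of its last bin 1.27 Mb from the end of chromosome 13. This run had a mean of 0.154, with a range of 0.121 to 0.195. It is 48.5% GC and holds SOX1, a transcription factor of neural progenitors, TUBGCP3, a subunit of the gamma-tubulin complex, ATP11A, a phospholipid flippase, and F7, F10 and PROZ, which encode the coagulation factors VII and X and protein Z. CUL4A, a ubiquitin ligase scaffold, and LAMP1, a lysosomal membrane protein, start there too. The gain was in contacts with B bins, at 0.232, and contacts with A bins were at 0.0233. Local contacts were at -0.0421. The senescent pair was at 0.119, above 0 in 10 of 10 bins.

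Further runs lay near the ends of chromosomes 10, 20 and 18. The 5 bins at chr10:134204785-135200937 had a mean of 0.117 and hold, among others, INPP5A, an inositol phosphate phosphatase, NKX6-2, a homeobox factor of the nervous system, and ADAM8, a membrane protease. Their contacts with B bins were at 0.205 and those with A bins at -0.0194. The 4 bins at chr20:61396924-62207753 had a mean of 0.121 and hold COL9A3, a collagen, DIDO1 and CHRNA4, a nicotinic receptor subunit. The 3 bins at chr18:77196389-77799595 had a mean of 0.170, with contacts with B bins at 0.410 and those with A bins at -0.154.

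The chromosome 18 run also crossed compartments in 2 of its 3 bins. Its first bin, which lies in NFATC1, a calcium-regulated transcription factor of lymphocytes, had a compartment score of 0.776 in Grow and -0.340 in Grow-shA1, the largest drop of all kept bins. The next bin, with CTDP1, a phosphatase of the tail of RNA polymerase II, and KCNG2, a potassium channel subunit, went from 0.713 to -0.0179. Its distal score was -0.0824 in Grow and 0.110 in Grow-shA1, a change of 0.192 (SD over 348 pairs 0.588). Both maps listed over 95% of these pairs (98.3% and 97.8%). In the senescent maps the score of the NFATC1 bin was 0.873 without and 0.824 with shA1, so no such drop was seen there.

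The highest single bin was that of HUNK, a protein kinase gene on chromosome 21, chr21:33201828-33399993, at 0.0468 in Grow and 0.263 in Grow-shA1, a change of 0.217 (SD over 153 pairs 0.463). It was B in both maps and its score dropped from -0.494 to -0.880. The bin of PDE9A, a phosphodiesterase of cGMP, at chr21:43997535-44208940 was at -0.153 in Grow and 0.0423 in Grow-shA1, a change of 0.195, while the senescent pair gave -0.0374. The bin chr13:112351355-112600707 was at -0.0318 and 0.163, also a change of 0.195. Over pairs listed in all 4 maps these 2 changes were 0.125 and 0.126. The bin chr20:33994791-34194343, with UQCC1, GDF5 and CEP250, was at -0.901 and -0.714. GDF5 is a growth factor of joints and CEP250 a protein of the centrosome. Only 64.7% of the distal pairs of the last bin had a score in both maps, and with unlisted pairs set to the lowest value of their distance its change was 0.0754.

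Blocks of 5 by 5 bins showed which partners were involved. The lowest block joined 2 stretches of chromosome 8 without a protein-coding start, chr8:83598543-84601187 and chr8:112600442-113600243, both about 35% GC, which were at 2.20 in Grow and 1.26 in Grow-shA1, a difference of -0.934 (SD over 25 pairs 0.358) with 25 of 25 pairs below 0. The senescent pair gave -0.945 for this block. A block of chromosome 13 between chr13:54801313-55801285 and chr13:89803467-90798294 was at 2.38 and 1.55, a difference of -0.833 with 25 of 25 pairs below 0.

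The highest blocks joined partners that differed in GC content, and several of them shared a GC-rich partner on chromosome 8. The highest of all joined a stretch of chromosome 8 without a protein-coding start, 34.5% GC, with chr8:143604581-144602759, 54.2% GC, which holds ARC, JRK, PSCA and LY6K, and was at -0.636 in Grow and 0.340 in Grow-shA1, a difference of 0.977 (SD over 20 pairs 0.469). A block of the short arm of chromosome 3 joined the region of CNTN6, a neural adhesion molecule (36.6% GC), with that of IQSEC1, NUP210, HDAC11 and FBLN2 (50.96% GC), and was at 0.0580 and 0.931 with 0 of 25 pairs below 0. On chromosome 14 a stretch without a protein-coding start (35.3% GC) and the region of BCL11B (44.3% GC) were at 0.749 and 1.54. BCL11B is a transcription factor of T cells and neurons. All 5 bins of both partners on chromosome 14 were B. In the highest block of chromosome 8 and in that of chromosome 3 this held for the AT-rich partner. The GC-rich partner there had 2 B bins on chromosome 8 and 3 on chromosome 3. The 1000 lowest of the 135739 blocks had a median distance of 39 Mb between their centres and the 1000 highest one of 24.0 Mb, against 36.0 Mb for all blocks. Blocks over 50 Mb apart made up 39% of the lowest and 10.6% of the highest, against 35.5% of all.

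The compartments of the 2 maps were close to each other. The scores of the 2 maps correlated with r = 0.989 over 12825 bins, from 0.982 on chromosome 4 to 0.994 on chromosome 7. The sign of the score differed in 357 bins (2.78%), of which 194 left A for B and 163 left B for A. With 1 component per arm the counts were 164 and 195, so the balance of the directions depends on how the score is computed. Most of these had a Grow score near 0, with a median size of 0.112 and 0.101. Of the 194, 56 started more than 0.2 from 0, as did 41 of the 163. The longest stretch from A to B, 6 bins at chr6:53802568-54999836 with TINAG, FAM83B and HCRTR2, an orexin receptor, went from 0.309 to -0.390, while it stayed A in the senescent maps (0.680 and 0.383). The longest from B to A, 3 bins at chr19:44200272-44803001, holds KCNN4, a calcium-activated potassium channel, and a cluster of zinc finger genes that includes ZNF283, ZNF404 and ZNF45, and went from -0.207 to 0.239.

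The largest shifts of score did not always cross 0. After the NFATC1 bin, the largest drops were in chr1:185399853-185594598 (1.06 to 0.206), the bin in THEMIS, a signalling protein of developing T cells (0.296 to -0.538), and in bins without a gene start on chromosomes 13 and 2. The largest rises were in 2 bins of chromosome 8 without a protein-coding gene (-0.798 to 0.0704 and -1.02 to -0.152), in the bin of PARP8 (-0.541 to 0.191), in that of DNAJC5B (-0.0997 to 0.627) and in chr16:51198911-51398907 (0.0435 to 0.736). The bins that dropped had a higher contact with B bins and a lower one with A bins, and those that rose the reverse, as the score is built.

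Genes were placed by their start of transcription. Of 19229 autosomal protein-coding genes, 16814 start in kept bins, of which 1108 (6.59%) lie in bins called lower and 167 (0.993%) in bins called higher. The median over the 6746 bins with a gene start was -0.0376. Of these 6746 bins, 5444 were below 0, 499 were called lower and 48 higher, so most bins of any list would lie below 0. Genes of a cluster share bins, so counts of bins are given beside counts of genes. The gene expression of these cells is not measured by Hi-C.

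The families of sensory receptor genes had the lowest medians of the lists. The bitter taste receptors had a median of -0.0814 over 9 bins, all below 0, and 5 of 24 genes, in 1 bin of chromosome 12 with TAS2R13 and TAS2R50, were called lower (-0.103). The olfactory receptors had a median of -0.0710 over 107 bins, of which 102 were below 0, and 103 of 378 genes in 23 bins were called lower and none higher. Their lowest bin, on chromosome 14 with OR4Q3 and OR4M1, was at -0.163 and their highest, that of OR4F4 on chromosome 15, at 0.0917. Of their 107 bins 89 are B, and their median GC content was 39.3%, against 41.8% for all bins with a gene start. The zinc fingers of chromosome 19, many of them repressors of transposons, had a median of -0.0510 over 88 bins, from -0.154 for ZNF302 to 0.0686 for ZNF101, and 43 of 246 genes in 15 bins were called lower.

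Long neuronal genes, most of them adhesion molecules and receptors of synapses, had a median of -0.0613, with 23 of 24 bins below 0 and 7 called lower. CDH13 was lowest (-0.130) and MACROD2 highest (0.0127). The type II cadherins, cell adhesion proteins, had a median of -0.0465 over 13 bins, with CDH6 lowest (-0.144) and CDH5, the cadherin of endothelium, highest (0.0954). The 4 called lower, named after their values were seen, were CDH6, CDH9, CDH18 and CDH12, which lie on the short arm of chromosome 5. The type I interferons, in 4 bins of 9p, were at a median of -0.0595, from -0.0896 for IFNK to -0.0469 for the bin of IFNA7, with none called. The beta defensins, antimicrobial peptides, had a median of -0.0565 over 10 bins, from -0.145 for DEFB129 and DEFB132 to 0.0469 for DEFB136.

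Genes of the senescence programme were spread on both sides of the background. The secretory phenotype, the cytokines and proteases that senescent fibroblasts release, had a median of -0.0388 over 17 bins, beside -0.0376 for all bins with a gene start, and 5 of 27 genes in 4 bins were called lower. IGFBP7 was lowest (-0.130) and IGFBP5 highest (0.0545). The others called lower, named here after their values were seen, were IL6 (-0.109), a main inflammatory cytokine, and the chemokines CCL2, CCL7 (both -0.109) and CCL8 (-0.111) on chromosome 17. The bin of CXCL8, CXCL1 and CXCL6 was at -0.0590 and that of MMP1, MMP3, MMP10 and MMP12, enzymes that degrade matrix, at -0.00965.

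Matrix genes lay higher, with a median of -0.0155 over 23 bins, 1 of them B and 14 below 0. POSTN, periostin of fibrous tissue, was lowest (-0.123) and FBLN2, a fibulin, highest (0.0632). POSTN and FAP (-0.106), a protease of activated fibroblasts, were the 2 called lower. FAP and the collagens that follow were picked out after their values were seen. The fibrillar collagen genes COL3A1 (0.0309), COL5A2 (0.0300) and COL1A1 (0.0217) were above 0 and COL1A2 (-0.0505) below. The bin of FBLN2 went from A to B and was part of the highest block of chromosome 3 above. TGF beta genes had a median of -0.0211, with TGFBR1, a receptor, lowest (-0.0953) and SMAD7, the inhibitory SMAD, highest (0.0507), and none of 15 was called.

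Cell cycle genes had a median of -0.0254 over 30 bins. PCNA, the sliding clamp of replication, was lowest (-0.132) and CCNE2, a cyclin of S phase entry, highest (0.0425). The 3 called lower, with the last pair named after their values were seen, were PCNA and the pocket proteins RBL2 (-0.132) and RBL1 (-0.109). The inhibitors CDKN2A and CDKN2B were at -0.0419 and -0.0561. Ribosomal protein genes, which every growing cell uses, had a median of -0.0205 over 64 bins, from -0.155 for RPS19 to 0.0843 for RPS21, with 4 of 65 called lower. The HOX clusters, which set position along the body, were near 0, with a median of -0.0143 over 8 bins, with the bin of HOXC8 highest at 0.0357. The histone genes of chromosome 6 were at -0.0183 over 6 bins and the clustered protocadherins, adhesion molecules that give neurons their identity, at -0.0244 over 5.

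Smaller lists varied within this range. The keratins and keratin-associated proteins had a median of -0.0232 over 20 bins and held both ends of the scale, with the KRTAP5 genes of chromosome 11 at -0.110 and the KRTAP10 genes of chromosome 21 at 0.114. The genes of the epidermal differentiation complex, with LORICRIN lowest (-0.0682), were at -0.0450 over 6 bins, and their local contacts were at -0.321, on chromosome 1, whose local contacts were the lowest of the autosomes. The serpin B genes were at -0.0315 over 5 bins, with SERPINB8 lowest (-0.109) and the bin of SERPINB1 highest (0.00807). Genes of the nuclear lamina and envelope had a median of -0.0236 over 8 bins, with LBR, the lamin B receptor, lowest (-0.0707) and LMNB1, lamin B1, highest (0.0442). The HMG proteins were at -0.0601 over 10 bins, all below 0, from -0.104 for HMGB2 to -0.0100 for HMGN4. The bin of HMGA1 itself, chr6:34198389-34406392, was A in both maps and stood at -0.465 in Grow and -0.495 in Grow-shA1, a change of -0.0308 that placed it above 63.5% of the bins.

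**Figure D5:**
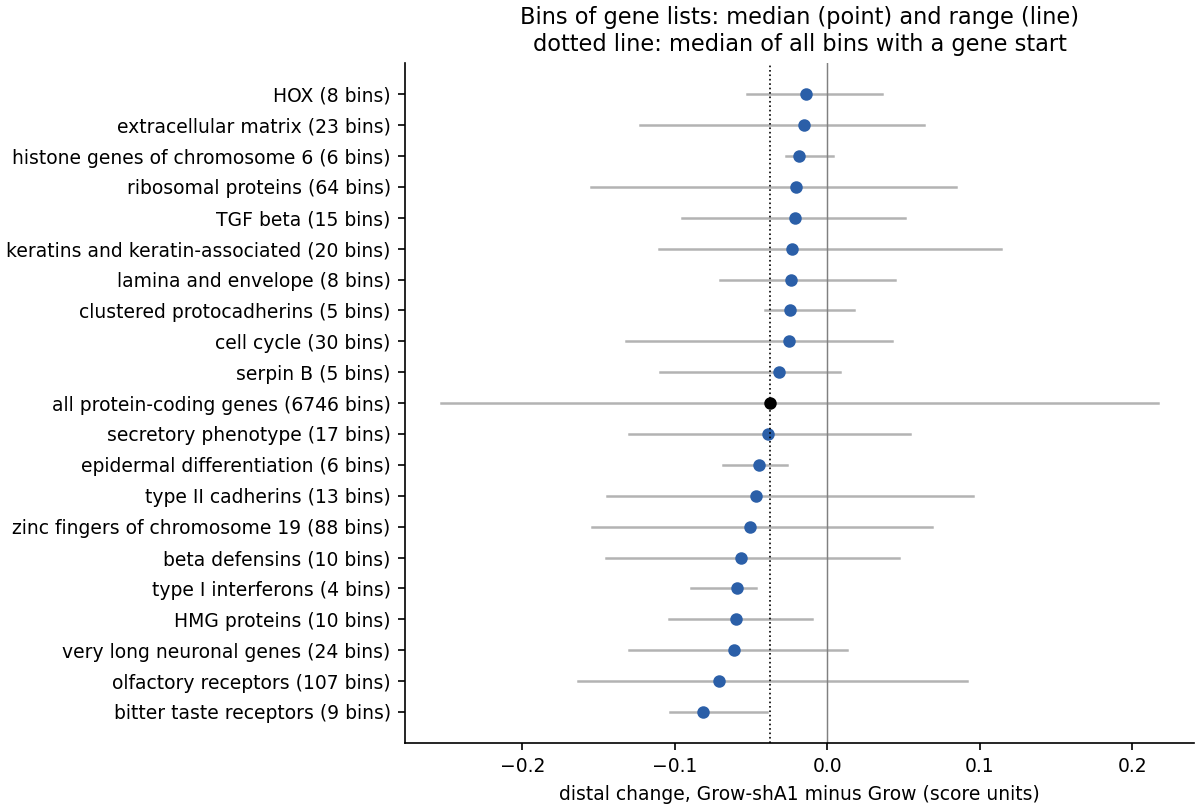
Median (points) and range (lines) of the distal change in score units, Grow-shA1 minus Grow, over the bins of each gene list (vertical axis, with the number of bins), with the median of all bins with a gene start (-0.0376) dotted. Bitter taste and olfactory receptors are lowest (-0.0814 and -0.0710) and the HOX clusters highest (-0.0143), and 3 ranges do not cross the dotted line, with the bitter taste receptors and type I interferons wholly below it and the histone genes above.

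Beside the growing pair, the senescent pair gave many of these bins the same sign. Of the 1377 bins called lower, 1187 (86.2%) were also below 0 in OIS-shA1 minus OIS and 640 passed -0.1 there, beside 66.1% and 2271 of all 12825 bins. Of the 67 called higher, 58 (86.6%) were above 0, beside 33.9% of all bins. The per-bin changes had r = 0.468 over 12825 bins (rho = 0.492), and r was above 0 on each of the 22 autosomes. The 2 comparisons share no map, and both set a newer data set against an earlier one, so what a change of data set adds to both cannot be told apart from the hairpin. Of the 1377, 190 were above 0 in the senescent pair, and they lay on 20 of the 22 autosomes, with 57 on chromosome 13, 21 on chromosome 16 and 18 on chromosome 21. Of the 43 bins lower in the growing pair and at 0.1 or more in the senescent pair, 30 were on chromosome 13 and 6 on chromosome 21.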

How the data were processed

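The authors mapped the Hi-C reads to hg19 (GRCh37) and built contact maps with HiC-Pro, per the labels, in bins of about 200 kb whose edges lie at HindIII sites. The deposited values are scores per pair of bins, corrected for coverage and distance, whose logarithm and prior are not stated. The Grow-shA1 map pools 2 samples, and the depth behind a pair is unknown. The pairs that the Grow-shA1 and Grow maps both list were joined and subtracted. Bins with under 50% of their pairs listed in any of the 4 maps were left out. Pairs over 2 Mb apart were averaged per bin, arm, distance and block of 5 by 5 bins, and a bin was called at -0.1 or 0.1. Compartments were the first principal component of each map, oriented by gene starts, with Grow as the reference. Gene starts came from a GENCODE annotation lifted to GRCh37 and sequences from GRCh37. With 1 map per condition no test was run, and correlations are descriptions. Genes were named by rule: the lowest and highest bin of each list, the 5 lowest and highest bins and blocks, the 5 longest runs, the 5 largest shifts of score each way, and HMGA1, with at most 4 genes a bin for the lists. Genes named besides these fall outside the rule. Among them are those of the CXCL8 and MMP1 bins, CDKN2A, CDKN2B and the genes of the stretches that changed compartment. Members and lists were chosen with earlier results of these data known, and the alternatives for GC pairs after seeing the data. Scripts were tested on simulated data. Python 3.11.15, numpy 2.4.6, pandas 2.3.3 and matplotlib 3.10.9 were used. The alternatives were centring, limiting, dividing by the SD, other pair and bin sets, medians, other distances, compartments and call limits. Some items are not reported here.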

Additional observations from a re-analysis of the deposited data

Results flagged for a closer look

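In 10 of the 39 arms the mean distal difference was below 0 in Grow-shA1 minus Grow and above 0 in OIS-shA1 minus OIS. The difference between the 2 comparisons was not tested, since each has 1 map per condition. The senescent value lay above the growing one by 0.180 in 9p, 0.166 in 5p and 0.133 in 4p, all short arms that were among the lowest in growing cells. It lay above it by 0.0916 in 11p, 0.0836 in 16q, 0.0756 in 21q and 0.0567 in 13q. The senescent values there were 0.0171 in 11p, 0.0232 in 16q, 0.0180 in 21q and only 0.00134 in 13q. In 22q, 8p and 19p the gaps were 0.0364, 0.0275 and 0.0192, and the growing values were -0.0357, -0.0201 and -0.000150. The senescent values of these arms were 0.000626, 0.00734 and 0.0191. In 13q, 22q, 8p and 19p the opposite sign thus rests on a value near 0 in 1 of the comparisons. The growing and senescent values were -0.0858 and 0.0803 in 5p, -0.0773 and 0.102 in 9p, and -0.0990 and 0.0337 in 4p. The other 29 arms had the same sign in both, with 18p the lowest of them in growing cells (-0.138 and -0.207).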

How the results depend on the processing

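No paired analysis was possible because the deposited maps pool the replicates, and for the same reason none was left out. The number of pairs listed, not a known depth, limits what can be seen at long distance. Of the values that summarise a comparison, 115 stayed within their spread or count under an alternative, 43 moved and 7 changed sign, and of those of single bins, lists and GC pairs 257 stayed, 19 moved and 12 changed sign. Values divided by the SD are in SD units but were set against score units in these counts. Whether they stayed or moved therefore also reflects the change of unit. Where no cause is given, the cause was not tested.

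Centring each distance on its median removes the offset by construction and gave -0.0253 for B-B, -0.00749 for A-B and 0.0200 for A-A pairs, the last of the opposite sign. By distance it gave -0.00508 at 1-2 Mb, -0.00649 at 2-5, -0.00724 at 5-10, -0.00543 at 10-20, -0.00220 at 20-50 and -0.0133 at 50-100 Mb. It called 303 bins lower and 247 higher, put 18p at -0.105, within arms at -0.0101 and between arms at -0.00555, and turned 19p to 0.0342 and A-A pairs within GC group 5 to 0.0323, with those of group 1 with group 5 at 0.0419. Dividing by the SD, in SD units, gave -0.103 for B-B pairs, -0.0987 at 50-100 Mb, -0.0646 over 100 Mb, -0.0709 within and -0.0614 between arms, with 3595 bins lower and 172 higher, and turned the secretory phenotype (0.00168), the protocadherins (-0.00277) and serpin B (-0.00222) to the other side of the background. With pairs listed in all 4 maps the values were -0.0744 at 50-100 Mb, -0.0348 over 100 Mb, -0.0519 between arms, 2338 bins lower, 0.0110 for 19p and -0.00262 for serpin B. With unlisted pairs set to the lowest value of their distance they were -0.0817 for A-B and -0.0367 for A-A pairs, -0.0941 at 50-100 Mb, -0.0767 over 100 Mb, -0.0718 within and -0.0757 between arms, with 3123 bins lower and 23 higher. With every bin that had any pair, 113 bins were higher, 19p was at 0.00948 and the beta defensins at 0.0246. Medians over pairs gave 0.00162 over 100 Mb, 124 bins higher, 0.0135 for 19p, -0.0127 between arms, -0.0102 for cell cycle and -0.00704 for keratin genes. With distal pairs over 5 Mb, 19p was at 0.0124, keratin genes at -0.00579 and serpin B at -0.00485. At 2 to 50 Mb, 2090 bins were lower and 146 higher, between arms was at -0.0517, type II cadherins at 0.00803 and epidermal differentiation at 0.0546. List values are medians minus that of all bins with genes. OIS compartments gave -0.0878 for B-B and -0.0321 for A-B pairs, and Grow-shA1 compartments -0.0533 and -0.0573. With 1 component per arm 164 bins left A and 195 left B. A call limit of 0.05 gave 5812 lower and 373 higher bins, and one of 0.2 gave 35 and 1.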
